A study of Mus musculus with 6 samples.

Results

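The genes described here are 10 transcription factor genes of the distal epithelial progenitors of the fetal lung: Sox9, Id2, Mycn, Foxp1, Foxp2, Foxp4, Nkx2-1, Foxa1, Foxa2 and Gata6. They were chosen by name, and every probe set that the platform annotation assigns to one of these symbols alone was taken, which gave 32 probe sets of 10 genes out of 45037 probe sets and 18193 named genes on the array. Total RNA of whole fetal mouse lungs at E18.5, shortly before birth, was hybridised to Affymetrix arrays, 1 array per animal. There were 3 lungs labelled Nfibf/f, Dermo1-Cre, called Cre-labelled here, and 3 lungs labelled Nfibf/f, called control-labelled. All 6 animals carried floxed alleles of Nfib, which encodes the transcription factor nuclear factor I B. In the Dermo1-Cre line the recombinase is driven by the Dermo1 locus, also called Twist2, which is active in embryonic mesenchyme, so Nfib is targeted outside the epithelial cells in which the factors measured here mainly act. The comparison asks what loss of Nfib in the lung mesenchyme does to proliferation and to the maturation of the neighbouring epithelium.

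The lung epithelium grows from distal tips, where multipotent progenitors divide in response to FGF10, WNT and other signals from the surrounding mesenchyme, and leave descendants that form airways first and alveoli later. Sox9 and Id2 mark the tip cells, and Mycn keeps them dividing. The forkhead repressors Foxp1, Foxp2 and Foxp4 act in distal epithelium and hold back airway fates. Nkx2-1 defines the lung lineage, and together with Foxa1, Foxa2 and Gata6 it switches on surfactant and other maturation genes before birth. Several of these genes are also used by other lung cells, Foxp1 by endothelium and mesenchyme, Gata6 by smooth muscle, and Sox9 by the cartilage of the airways. In RNA of whole lungs, fewer cells of a type and less RNA per cell cannot be told apart.

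Of 6 tested Nfib probe sets 5 rose and none fell in Cre-labelled lungs. The brightest read 11.24, 11.16 and 11.49 log2 units in Cre-labelled lungs, against 10.24, 10.32 and 10.17 in control-labelled lungs, and the groups did not overlap. The sources used here do not place the Nfib probes relative to the floxed part of the gene, so the arrays do not check the genotypes and every direction below rests on the labels as deposited. Arrays of different groups correlated at 0.931 to 0.949 over all probe sets and arrays of the same group at 0.94 to 0.95. Xist was high and Y-linked genes low on 1 array of each group, Cre-labelled replicate 2 and control-labelled replicate 1. The summed linear signal of 12 cardiac muscle marker genes ran from 1878 to 4777 in Cre-labelled lungs and from 3247 to 11900 in control-labelled lungs, so the groups overlapped. Of the 11 tested all had a lower mean in Cre-labelled lungs (median -1.11) and none passed. Myl3 came nearest (limma adjusted p = 0.054), then Actc1 (-1.11 ± 0.35 SE, limma adjusted p = 0.12), both genes of the heart's contractile apparatus. Myl3 averaged 3.97 in Cre-labelled lungs, below the 4.0 log2 units required for testing, and 5.29 in control-labelled lungs. It thus entered the test only through the control-labelled arrays, and the size of its difference is not given. Myl2 entered in the same way, at 3.52 in Cre-labelled and 6.30 in control-labelled lungs. With the mean of these markers as a covariate, calls over the whole array numbered 17 in place of 963. The 3' minus 5' control signal of Actb was 0.41 to 0.83 on Cre-labelled and 0.35 to 0.52 on control-labelled arrays.

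Of the 10 factors, Mycn and Foxp2 rose in Cre-labelled lungs and none fell. The rises were moderate, 1.67-fold for Mycn and 1.46-fold for the brightest Foxp2 probe set. Both Sox9 probe sets that could be tested had higher means of similar size without passing the test, and the lineage and maturation factors Nkx2-1, Foxa1, Foxa2 and Gata6 had lower means without passing it. Probe sets were fitted with limma on the log2 scale across all 27022 probe sets whose mean signal reached the 40th percentile of the array (4.0 log2 units), and called at a Benjamini-Hochberg adjusted p of 0.05 over all of them. Each difference subtracts the control-labelled from the Cre-labelled mean and carries the standard error (SE) of that fit. The small number of arrays limits its precision. The p-values set each difference against the spread between these animals, which limma moderates with a trend over all tested probe sets.

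Of the 32 member probe sets, 30 were bright enough to test, and 3 passed, all 3 higher in Cre-labelled lungs. Over the array 963 probe sets passed (3.56%), 380 of them higher (1.41%) and 583 lower (2.16%). With each gene represented by its brightest probe set, 2 of the 10 members passed, against 636 of 12826 genes (4.96%). The 3 passing member probe sets come from 2 genes, and probe sets of 1 gene measure overlapping transcripts, so they are not independent. The remaining 27 did not pass. The median log2 difference of the 30 was -0.01, against 0.00 over all tested probe sets, with 15 above and 15 below 0. The groups did not overlap for 10 of the 30 member probe sets (33.3%), against 26.1% of all tested probe sets. Of these 10, 8 were higher and 2 lower in Cre-labelled lungs, where 13.3% and 12.8% of all tested probe sets separated the groups in those directions. At an unadjusted p of 0.05, 9 of the 30 passed.

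**Figure D1:**
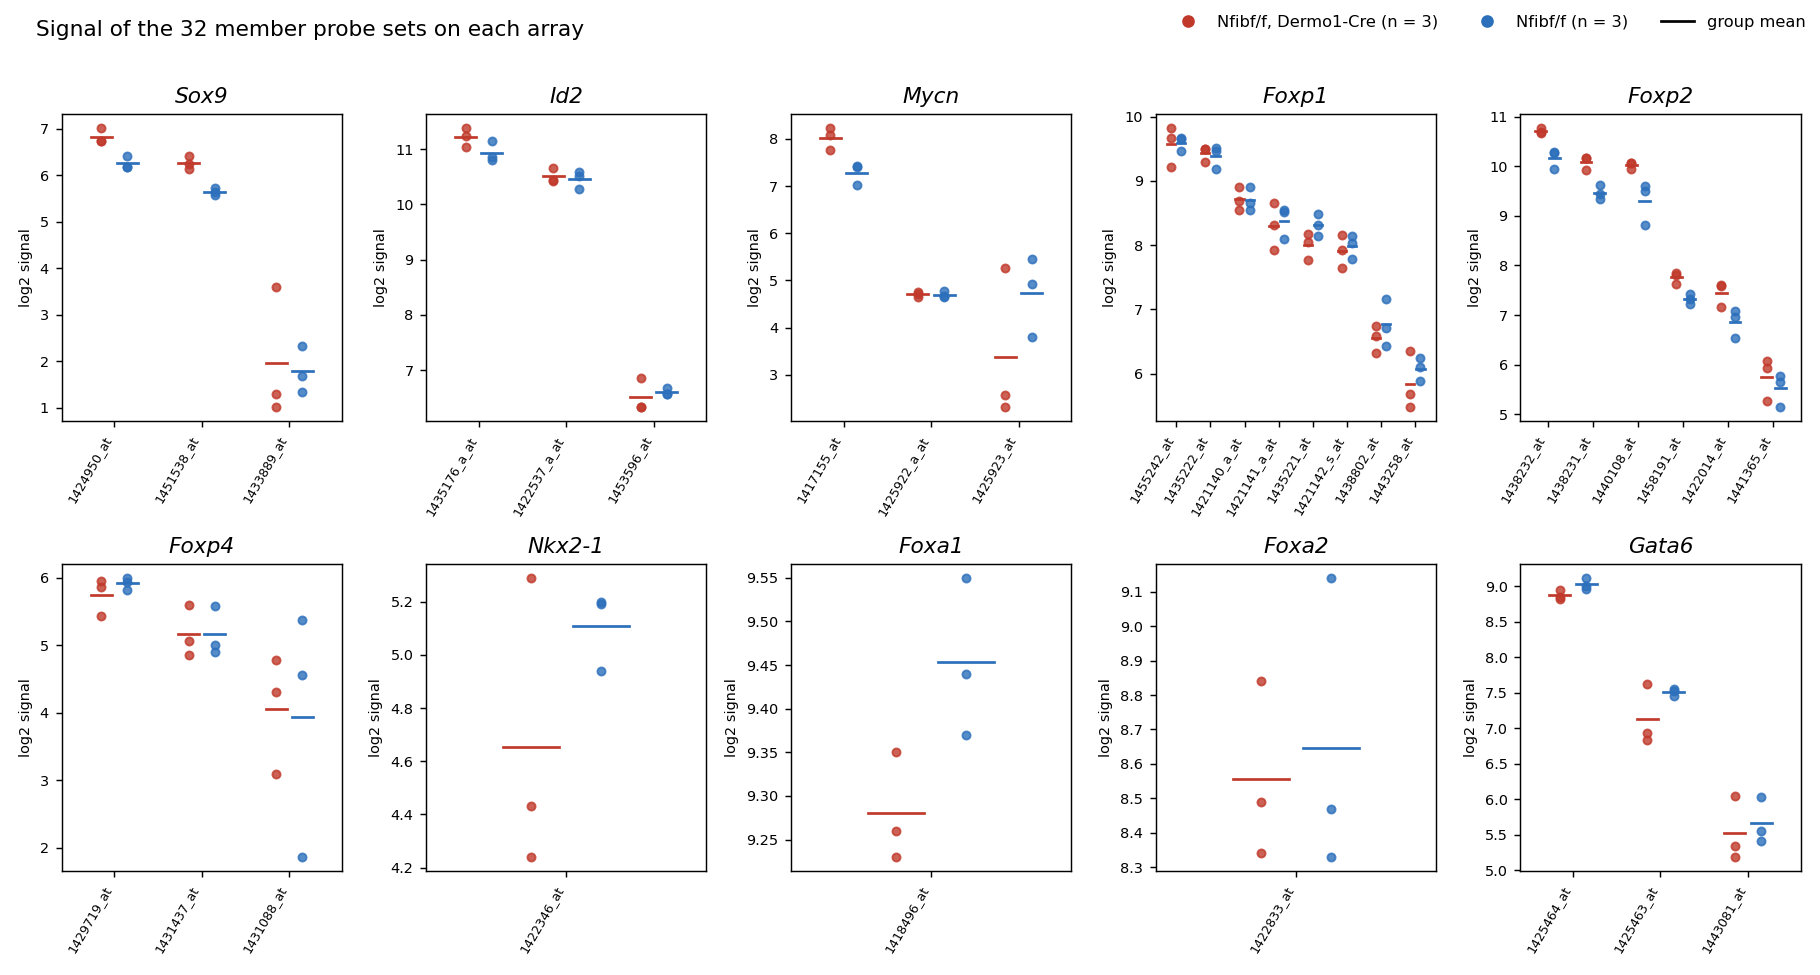
Log2 signal (y axis, its range differs between panels) of the 32 member probe sets on each array, with Cre-labelled lungs (Nfibf/f, Dermo1-Cre, red) left of control-labelled lungs (Nfibf/f, blue), 3 arrays each; short lines are group means. The groups separate upward for the brightest Mycn probe set, for 5 of 6 Foxp2 probe sets and for both tested Sox9 probe sets. They separate downward for Foxa1 and the brightest Gata6 probe set, while the Foxp1 groups overlap in all 8.

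Sox9, an HMG-box factor that marks the distal tips, was measured by 3 probe sets. The brightest, 1424950_at, read 7.01, 6.73 and 6.74 log2 units in Cre-labelled lungs, against 6.17, 6.18 and 6.41 in control-labelled lungs. The next, 1451538_at, read 6.42, 6.23 and 6.13 in Cre-labelled lungs, against 5.64, 5.72 and 5.57 in control-labelled lungs. Every Cre-labelled array thus lay above every control-labelled array on both. The log2 differences were 0.57 ± 0.16 SE (1.49-fold, limma adjusted p = 0.079) and 0.62 ± 0.17 SE (1.53-fold, limma adjusted p = 0.081), so neither passed over the whole array. The first of them passed with array weights (limma adjusted p = 0.049). With 1 probe set per gene, where fewer features share the adjustment, the limma adjusted p of Sox9 was 0.042, and with the mean of its tested probe sets 0.029. The remaining probe set, 1433889_at, averaged 1.96 ± 1.41 in Cre-labelled and 1.78 ± 0.50 in control-labelled lungs (SD, n = 3 each), below the level required for testing.

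Cartilage is the other main site of Sox9 in the chest, and its markers were set beside the Sox9 values. Of 14 cartilage genes 10 were bright enough to test. None rose and 1 passed as lower, the cartilage matrix gene Chad (limma adjusted p = 0.0067). Chad averaged 2.73 ± 0.52 in Cre-labelled lungs, below the level required for testing, and 5.55 ± 0.38 in control-labelled lungs (SD, n = 3 each), so it entered the test only through the control-labelled arrays and the size of its difference is not given. The median log2 difference of the list was 0.10. Col9a1, a cartilage collagen gene, differed by 1.34 ± 0.33 SE (log2, limma adjusted p = 0.06). The aggrecan gene Acan, Matn1, Matn3 and Comp lay below the level required for testing. The summed linear signal of the list was 525.2 to 723.6 in Cre-labelled and 398.0 to 731.2 in control-labelled lungs, so the groups overlapped; their part in the Sox9 values was not tested.

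Id2 encodes an inhibitor of basic helix-loop-helix factors and marks the same tip cells. Its brightest probe set, 1435176_a_at, read 11.03, 11.38 and 11.23 in Cre-labelled lungs, against 10.86, 11.14 and 10.81 in control-labelled lungs. The groups overlapped, since the lowest Cre-labelled array lay below the highest control-labelled one. The log2 difference was 0.28 ± 0.13 SE (95% interval -0.02 to 0.58, limma adjusted p = 0.3). The other Id2 probe sets had log2 differences of 0.05 ± 0.12 SE and -0.09 ± 0.18 SE. None of the 3 passed in any of 17 alternative fits each.

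Mycn, a basic helix-loop-helix leucine zipper factor of dividing progenitors, gave the largest called difference among the members. Its brightest probe set, 1417155_at, read 8.09, 8.23 and 7.76 log2 units in Cre-labelled lungs, against 7.42, 7.41 and 7.02 in control-labelled lungs. The lowest Cre-labelled array was above the highest control-labelled one. The group means were 8.02 ± 0.24 in Cre-labelled and 7.29 ± 0.23 in control-labelled lungs (SD, n = 3 each), a shift of 0.74 ± 0.16 SE in log2 units (limma adjusted p = 0.039). Permuting the 6 arrays exactly gave this probe set p = 0.10, two-sided, the smallest that this design allows.

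The other Mycn probe sets, both far dimmer, did not show this difference. On 1425922_a_at the arrays read 4.72, 4.75 and 4.65 in Cre-labelled lungs, against 4.67, 4.64 and 4.78 in control-labelled lungs, a log2 shift of 0.01 ± 0.22 SE. On 1425923_at they read 2.31, 2.57 and 5.27 in Cre-labelled lungs, against 4.92, 3.80 and 5.46 in control-labelled lungs, a difference of -1.34 ± 0.74 SE (limma adjusted p = 0.36). The arrays agreed closely within each group on 1425922_a_at (SD 0.05 in Cre-labelled and 0.07 in control-labelled lungs) and scattered widely on 1425923_at (SD 1.64 and 0.84). The Cre-labelled mean of 1425923_at, 3.39, lay below the level required for testing, so its value says little about Mycn. With the mean of the 3 probe sets standing for the gene the difference was -0.20 ± 0.25 SE (limma adjusted p = 0.67), a value that includes this dim probe set. The rise of Mycn was called on 1 of its 3 probe sets.

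The Mycn call also depended on single arrays. It was lost without Cre-labelled replicate 1 (log2 difference 0.71, limma adjusted p = 0.11), without Cre-labelled replicate 2 (0.64, 0.11), and without control-labelled replicate 1 (0.81, 0.077), 2 (0.80, 0.078) or 3 (0.61, 0.11), and held without Cre-labelled replicate 3 (0.87, 0.041). It was lost as well with the cardiac marker mean as a covariate (0.78, 0.18). Over 17 alternative fits the difference stayed between 0.56 and 0.87 and passed in 8.

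The promoter of Mycn is shown because it holds a motif known from promoters of cell cycle genes, a group whose values are given below. It is the RefSeq window from 250 bases before to 50 bases after the gene's start (GRCm38.p6, chr12:12941787-12942086, minus strand), read 5' to 3', with matches to the E2F motif TTTGGCGC in capitals. The Id2 promoter (GRCm38.p6, chr12:25096043-25096342, minus strand), of a member that did not pass, is shown for comparison with its match to TTGGC, the nuclear factor I half-site, in capitals.
Mycn: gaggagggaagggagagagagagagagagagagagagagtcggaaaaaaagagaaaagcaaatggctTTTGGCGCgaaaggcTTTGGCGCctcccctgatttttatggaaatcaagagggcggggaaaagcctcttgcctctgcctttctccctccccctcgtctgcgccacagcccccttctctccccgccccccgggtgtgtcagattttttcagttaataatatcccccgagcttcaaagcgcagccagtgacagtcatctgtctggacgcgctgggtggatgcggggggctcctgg
Id2: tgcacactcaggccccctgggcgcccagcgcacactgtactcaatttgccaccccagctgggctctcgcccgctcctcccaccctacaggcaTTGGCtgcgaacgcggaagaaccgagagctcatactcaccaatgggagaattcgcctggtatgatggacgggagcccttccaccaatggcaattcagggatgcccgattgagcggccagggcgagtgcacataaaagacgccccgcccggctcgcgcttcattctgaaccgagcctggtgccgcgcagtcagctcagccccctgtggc
The E2F factors are activators and repressors of genes needed to enter S phase. The motif TTTGGCGC occurred at 2 places in the Mycn window, beginning 183 and 168 bases before the start, and in 0.514% of 32851 promoter windows of the same length, searched on both strands. It occurred in none of the other 10 member windows, which belong to Id2, Foxp1, Foxp4, Nkx2-1, Foxa1 and Foxa2. The half-site TTGGC lies inside both E2F matches of Mycn and begins 158 bases before the start in Id2. It occurred in 5 of the 11 member windows, of Foxa2, Id2, Mycn and Nkx2-1, and in 46.7% of all windows, so its share among the members is near the background. A forkhead motif, TGTTTAC, occurred in the Foxa1 window and in 3.65% of all windows, and the Myc motif CACGTG in no member window and in 7.15% of all. The full nuclear factor I palindrome, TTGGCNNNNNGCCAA, was in none of the 11 member windows and in 0.0365% of all. A match describes letters in this window and shows no binding, and the part of any motif in the Mycn difference was not tested.

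Foxp2, a forkhead repressor of the distal epithelium, had a higher mean in Cre-labelled lungs on each of its 6 probe sets, and 2 of them passed. The brightest, 1438232_at, read 10.68, 10.69 and 10.77 log2 units in Cre-labelled lungs, against 10.28, 10.26 and 9.95 in control-labelled lungs. The next, 1438231_at, read 10.17, 9.92 and 10.16 in Cre-labelled lungs, against 9.44, 9.62 and 9.35 in control-labelled lungs. On both, all Cre-labelled arrays were above all control-labelled ones, and the spread within Cre-labelled lungs was small, at 0.05 and 0.14 (SD, n = 3 each). The log2 differences were 0.55 ± 0.11 SE (1.46-fold, limma adjusted p = 0.035) and 0.61 ± 0.11 SE (1.53-fold, limma adjusted p = 0.023). The exact permutation p of the brightest probe set was 0.10, two-sided, again the smallest possible.

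The other 4 Foxp2 probe sets did not pass over the whole array. On 1440108_at the arrays read 10.06, 9.95 and 10.07 in Cre-labelled lungs, against 9.60, 9.51 and 8.82 in control-labelled lungs, a shift of 0.72 ± 0.18 SE in log2 units (limma adjusted p = 0.068). The low reading of control-labelled replicate 3 carries part of that size, since the difference was 0.47 without it. The probe sets 1458191_at (0.43 ± 0.12 SE, limma adjusted p = 0.079) and 1422014_at (0.60 ± 0.18 SE, limma adjusted p = 0.11) separated the groups as well. The dimmest, 1441365_at, had overlapping groups and a difference of 0.24 ± 0.27 SE. With the mean of all 6 probe sets standing for the gene the difference was 0.53 ± 0.11 SE (limma adjusted p = 0.02).

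The Foxp2 calls also depended on single arrays. The call of 1438232_at was lost without any 1 of the 6 arrays. The limma adjusted p was then 0.089, 0.087 and 0.096 without Cre-labelled replicates 1, 2 and 3, and 0.063, 0.078 and 0.075 without control-labelled replicates 1, 2 and 3, with log2 differences of 0.44 to 0.61. The call of 1438231_at held without Cre-labelled replicate 2 (limma adjusted p = 0.031) and control-labelled replicate 2 (0.048), and was lost without Cre-labelled replicate 1 (0.08) or 3 (0.069) and control-labelled replicate 1 (0.074) or 3 (0.07). Its differences in these fits were 0.55 to 0.69. With the cardiac marker mean as a covariate both calls were lost, at differences of 0.75 and 0.65. Both were lost with no intensity trend as well (limma adjusted p = 0.11 and 0.089). The call of 1438232_at was also lost with fetal sex as a covariate (limma adjusted p = 0.057), with centred arrays (0.083) and with no filter (0.056). The plot of alternative fits shows both probe sets on the same side of 0 throughout.

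Foxp1, the close relative of Foxp2, is used in epithelium, endothelium and mesenchyme, and none of its 8 probe sets passed. The brightest, 1455242_at, read 9.66, 9.22 and 9.82 in Cre-labelled lungs, against 9.66, 9.46 and 9.65 in control-labelled lungs. The groups overlapped fully. Its log2 difference was -0.02 ± 0.15 SE (95% interval -0.36 to 0.32, limma adjusted p = 0.96), and the 8 probe sets ranged from -0.31 to 0.04. The lowest, 1435221_at, had an interval of -0.62 to -0.01 and a limma adjusted p of 0.25.

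Foxp4, another forkhead factor of this group in the lung, was dim on the array. Its brightest probe set, 1429719_at, read 5.86, 5.96 and 5.44 in Cre-labelled lungs, against 5.94, 6.0 and 5.82 in control-labelled lungs, with overlapping groups. The log2 difference was -0.17 ± 0.20 SE (95% interval -0.61 to 0.27, limma adjusted p = 0.7), and that of 1431437_at was 0.01 ± 0.28 SE. The dimmest probe set, 1431088_at, lay below the level required for testing and averaged 4.06 ± 0.87 in Cre-labelled and 3.93 ± 1.84 in control-labelled lungs (SD, n = 3 each).

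The 3 Foxp genes were also compared with each other within each array, 3 pairs in all, using the brightest probe set of each. Signals of different probe sets are on different scales, so only the shift of each difference between the groups is read. The Foxp2 minus Foxp1 signal was 1.01, 1.47 and 0.95 in Cre-labelled lungs, against 0.62, 0.80 and 0.30 in control-labelled lungs, a shift of 0.57. The Foxp2 minus Foxp4 signal shifted by 0.72 and the Foxp1 minus Foxp4 signal by 0.14. The first and second shifts separated the groups and the third did not. The brightest Foxp2 probe set was already called, at a difference of 0.55, and those of Foxp1 and Foxp4 differed by -0.02 and -0.17. The first and second shifts thus largely restate the Foxp2 difference. The exact permutation p values were 0.10, 0.10 and 0.80, two-sided (0.15, 0.15 and 0.80 adjusted over the 3 pairs), and 0.10 is the smallest that this test can give with 3 against 3 arrays, so it could not call any of the shifts. These comparisons were added after the data had been seen.

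**Figure D2:**
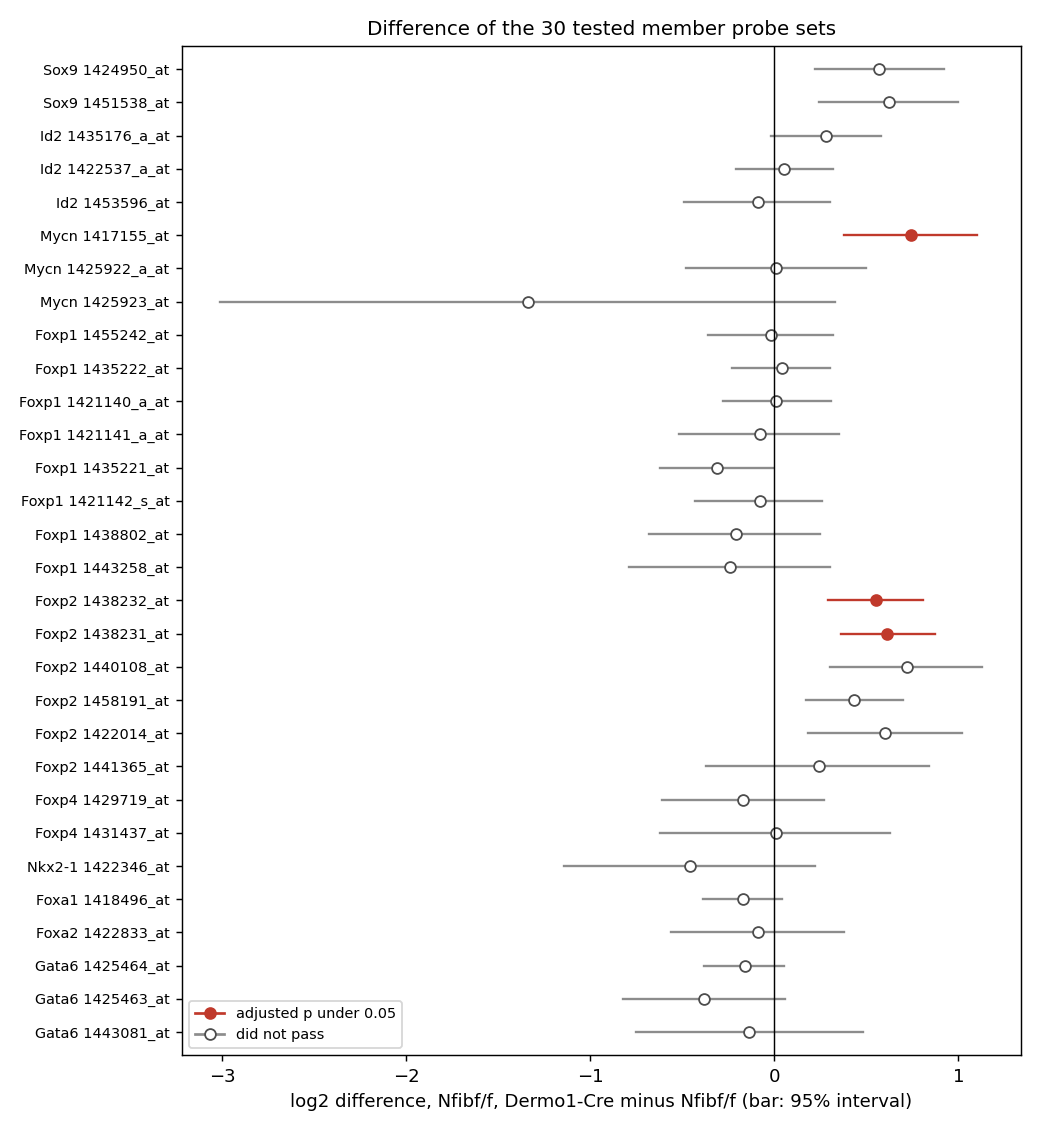
Log2 difference (x axis, Cre-labelled minus control-labelled, n = 3 each) of the 30 tested member probe sets, with the 95% interval of the limma fit as a bar; filled red circles passed an adjusted p of 0.05. The 3 red circles are 1 Mycn and 2 Foxp2 probe sets at 0.55 to 0.74, both Sox9 probe sets lie at 0.57 and 0.62 without passing, and the Nkx2-1, Foxa1, Foxa2 and Gata6 circles all lie below 0 with intervals that include it.

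Nkx2-1, the homeodomain factor that defines lung epithelium, was measured by 1 probe set at low signal. It read 5.29, 4.43 and 4.24 in Cre-labelled lungs, against 5.20, 5.19 and 4.94 in control-labelled lungs. Cre-labelled replicate 1 was the highest of all 6 arrays and the other Cre-labelled arrays were the lowest. The log2 difference was -0.46 ± 0.30 SE (95% interval -1.14 to 0.22, limma adjusted p = 0.45). Without Cre-labelled replicate 1 it was -0.78 (limma adjusted p = 0.18). The interval over all arrays reaches past a 2-fold fall, so this probe set gives little information on Nkx2-1.

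Foxa1 and Foxa2 are pioneer factors that open chromatin at endoderm genes. The Foxa1 probe set read 9.23, 9.35 and 9.26 in Cre-labelled lungs, against 9.44, 9.37 and 9.55 in control-labelled lungs, a separation of the groups by a narrow gap. Its log2 difference was -0.17 ± 0.09 SE (95% interval -0.39 to 0.04, limma adjusted p = 0.35). Foxa2 read 8.84, 8.49 and 8.34 in Cre-labelled lungs, against 8.33, 8.47 and 9.14 in control-labelled lungs, with overlapping groups and a difference of -0.09 ± 0.21 SE (95% interval -0.56 to 0.38). Without control-labelled replicate 3, its highest array, the Foxa2 difference was 0.16.

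Gata6, a zinc finger factor of lung maturation, had lower means on all 3 probe sets and passed on none. The brightest, 1425464_at, read 8.85, 8.82 and 8.95 in Cre-labelled lungs, against 8.96, 9.01 and 9.12 in control-labelled lungs. The highest Cre-labelled array lay just below the lowest control-labelled one. The log2 difference was -0.16 ± 0.09 SE (95% interval -0.38 to 0.05, limma adjusted p = 0.39). On 1425463_at the arrays read 7.62, 6.94 and 6.83 in Cre-labelled lungs, against 7.55, 7.46 and 7.53 in control-labelled lungs, where Cre-labelled replicate 1 stood with the control-labelled arrays. That difference was -0.38 ± 0.20 SE (limma adjusted p = 0.32), and without Cre-labelled replicate 1 it was -0.63 (limma adjusted p = 0.067). The log2 difference of 1443081_at was -0.14 ± 0.27 SE. Of 8 smooth muscle markers, a second site of Gata6, none passed (median 0.12). The nearest were the contractile genes Cnn1 (0.74 ± 0.24 SE) and Actg2 (0.38 ± 0.13 SE, limma adjusted p = 0.14 for both). Their list's summed signal was 6357 to 6542 in Cre-labelled and 5559 to 6108 in control-labelled lungs.

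Relatives of the members by gene family did not move past the test. Of 15 such genes 12 were bright enough to test and none passed in either direction, with a median log2 difference of -0.16. The nearest to the threshold were Gata2, a GATA factor of blood and endothelial cells (-0.52 ± 0.13 SE, limma adjusted p = 0.061), and Gata5 (0.55 ± 0.14 SE, limma adjusted p = 0.071). Among the relatives of Id2, Id1 read 10.13, 10.35 and 9.89 in Cre-labelled lungs, against 10.10, 10.47 and 10.66 in control-labelled lungs. The Mycn relative Myc differed by 0.28 ± 0.18 SE (log2, limma adjusted p = 0.44).

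Other genes of the distal tip moved in both directions. Of 11 tested, 2 rose and 1 fell, around a median of 0.01. Sox11, an HMG-box factor of immature cells, read 8.50, 8.58 and 8.69 in Cre-labelled lungs, against 7.78, 7.96 and 7.90 in control-labelled lungs (0.71 ± 0.10 SE, limma adjusted p = 0.01). Clu, which encodes the secreted chaperone clusterin, also rose (0.88 ± 0.14 SE, limma adjusted p = 0.015), and Cpm, a membrane carboxypeptidase gene, fell (-0.76 ± 0.13 SE, limma adjusted p = 0.019). Without 1 array Sox11 passed in 6 of 6 fits, Clu in 5 and Cpm in 2. Etv5, a target of FGF signalling in the tips, differed by 0.41 ± 0.13 SE (log2, limma adjusted p = 0.12), and Shh, the ligand that tips send to mesenchyme, by -0.42 ± 0.12 SE (limma adjusted p = 0.081).

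The signals that act on the tips were represented by 17 genes of ligands, antagonists and feedback targets, of which 14 were tested. Here 2 rose and 2 fell, around a median of -0.08. Wnt2, a mesenchymal WNT ligand, rose by 0.65 ± 0.09 SE (limma adjusted p = 0.0085). Lef1, a nuclear effector of WNT signalling, read 7.65, 7.21 and 7.27 in Cre-labelled lungs, against 6.65, 6.42 and 5.89 in control-labelled lungs (1.06 ± 0.21 SE, limma adjusted p = 0.03). The FGF antagonist gene Spry1 (-0.74 ± 0.16 SE, limma adjusted p = 0.036) and the hedgehog antagonist gene Hhip (-0.44 ± 0.10 SE, limma adjusted p = 0.045) fell. Fgf10, the ligand that drives tip outgrowth, differed by 0.35 ± 0.25 SE (log2, limma adjusted p = 0.49). Without 1 array Wnt2 passed in 6 of 6 fits, Lef1 and Spry1 in 1 and Hhip in 0.

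Of 19 listed transcription factors of airway or later alveolar fates, 17 were matched on the array and 15 were bright enough to test. None of those tested rose. Of 15 tested, 4 fell, and all 15 had a lower mean in Cre-labelled lungs (median -0.33). Those that fell were Cebpa (-0.64 ± 0.14 SE, limma adjusted p = 0.042), which drives type II cell maturation, its relative Cebpd (-0.85 ± 0.16 SE, limma adjusted p = 0.025), Klf5 (-0.81 ± 0.17 SE, limma adjusted p = 0.039) and Tfcp2l1 (-0.95 ± 0.18 SE, limma adjusted p = 0.025). Without 1 array, Cebpa and Klf5 passed in 1 and Cebpd and Tfcp2l1 in 2 of 6 fits. Sox2, the factor of the proximal airways, differed by -0.25 ± 0.17 SE (log2, limma adjusted p = 0.47).

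Of 12 tested genes that Nkx2-1, the Foxa factors and their partners switch on, 4 fell and none rose, and their median was -0.59. Those that fell were the surfactant protein genes Sftpb (-1.27 ± 0.20 SE, limma adjusted p = 0.015), Sftpd (-1.41 ± 0.24 SE, limma adjusted p = 0.019) and Sftpa1 (-0.68 ± 0.16 SE, limma adjusted p = 0.048), and the lipid transporter gene Abca3 (-0.67 ± 0.10 SE, limma adjusted p = 0.014). The other 8 did not pass, among them the surfactant protein gene Sftpc (-0.07 ± 0.30 SE, limma adjusted p = 0.93), whose groups overlapped. Of the 12 genes 11 had lower means and 1 a higher mean. Without 1 array Sftpb passed in 5 of 6 fits, Sftpd and Abca3 in 4 and Sftpa1 in 1. The brightest probe sets of Foxa1, Foxa2, Gata6 and Nkx2-1 had log2 differences of -0.17, -0.09, -0.16 and -0.46, none of which passed. Whether targets and factors differed in size of change was not tested.

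Epithelial content was read from 15 pan-epithelial genes. Of these 1 fell, the keratin gene Krt19 (-0.63 ± 0.14 SE, limma adjusted p = 0.039), none rose, and the median log2 difference was -0.35. The call of Krt19 held in 1 of 6 fits without 1 array, that without Cre-labelled replicate 2 (limma adjusted p = 0.039), and was at 0.067 to 0.11 in the others. Another keratin gene, Krt7, came next (-0.57 ± 0.14 SE, limma adjusted p = 0.061). The summed linear signal was 10510 to 13160 in Cre-labelled and 13290 to 16110 in control-labelled lungs, without overlap. Of the 15 genes 13 had lower and 2 had higher means in Cre-labelled lungs. The higher ones were Esrp1 (0.18 ± 0.09 SE, limma adjusted p = 0.32) and Epcam, an epithelial adhesion gene. Epcam read 10.85, 10.89 and 10.59 in Cre-labelled lungs, against 10.31, 10.49 and 10.55 in control-labelled lungs. Of 9 alveolar type I markers 6 fell, with a median of -0.82, namely Scnn1g, Aqp5, Clic5, Pdpn, Rtkn2 and Emp2, by 0.81 to 1.56 log2 units. Of 12 endothelial markers (median -0.42) the capillary gene Car4 fell (-2.14 ± 0.22 SE, limma adjusted p = 0.0039) and Ramp2 came next (-0.59 ± 0.14 SE, limma adjusted p = 0.052). Of 8 tested immune markers (median -0.33) 1 fell and 7 did not pass. The lysozyme gene Lyz2 fell (-0.88 ± 0.14 SE, limma adjusted p = 0.015), and which cells its signal comes from was not tested. The leukocyte gene Ptprc had a limma adjusted p of 0.25. Of 11 lung mesenchyme markers none passed (median 0.02), the nearest being the transcription factor genes Meis1 (0.36 ± 0.11 SE, limma adjusted p = 0.096) and Tbx5 (0.44 ± 0.18 SE, limma adjusted p = 0.23). Without 1 array, Scnn1g, Clic5 and Car4 passed in 6 of 6 fits, Aqp5 in 5, Rtkn2 in 4, Emp2 and Lyz2 in 3 and Pdpn in 2. The part of cell content in the rises of Mycn and Foxp2 was not tested.

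Cell cycle genes moved in the same direction as Mycn. Of the 15 tested, 11 rose and none fell, around a median of 0.55 log2 units. Examples are the replication licensing genes Mcm4 (0.67 ± 0.11 SE, limma adjusted p = 0.015) and Mcm3 (0.65 ± 0.11 SE, limma adjusted p = 0.015), the topoisomerase gene Top2a (0.55 ± 0.10 SE, limma adjusted p = 0.019) and the proliferation marker Mki67 (0.52 ± 0.10 SE, limma adjusted p = 0.026). The licensing genes Mcm2, Mcm5, Mcm7 and Cdc6, the cyclin gene Ccna2 and the mitotic kinase genes Bub1 and Aurka rose as well, by 0.44 to 0.62 log2 units. The summed signal of the list was 19220 to 20150 in Cre-labelled and 13420 to 15000 in control-labelled lungs. Without 1 array Mcm4 and Mcm3 passed in 4 of 6 fits, Top2a, Bub1, Mcm2 and Mcm5 in 1, and Mki67, Aurka, Ccna2, Cdc6 and Mcm7 in 0.

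**Figure D3:**
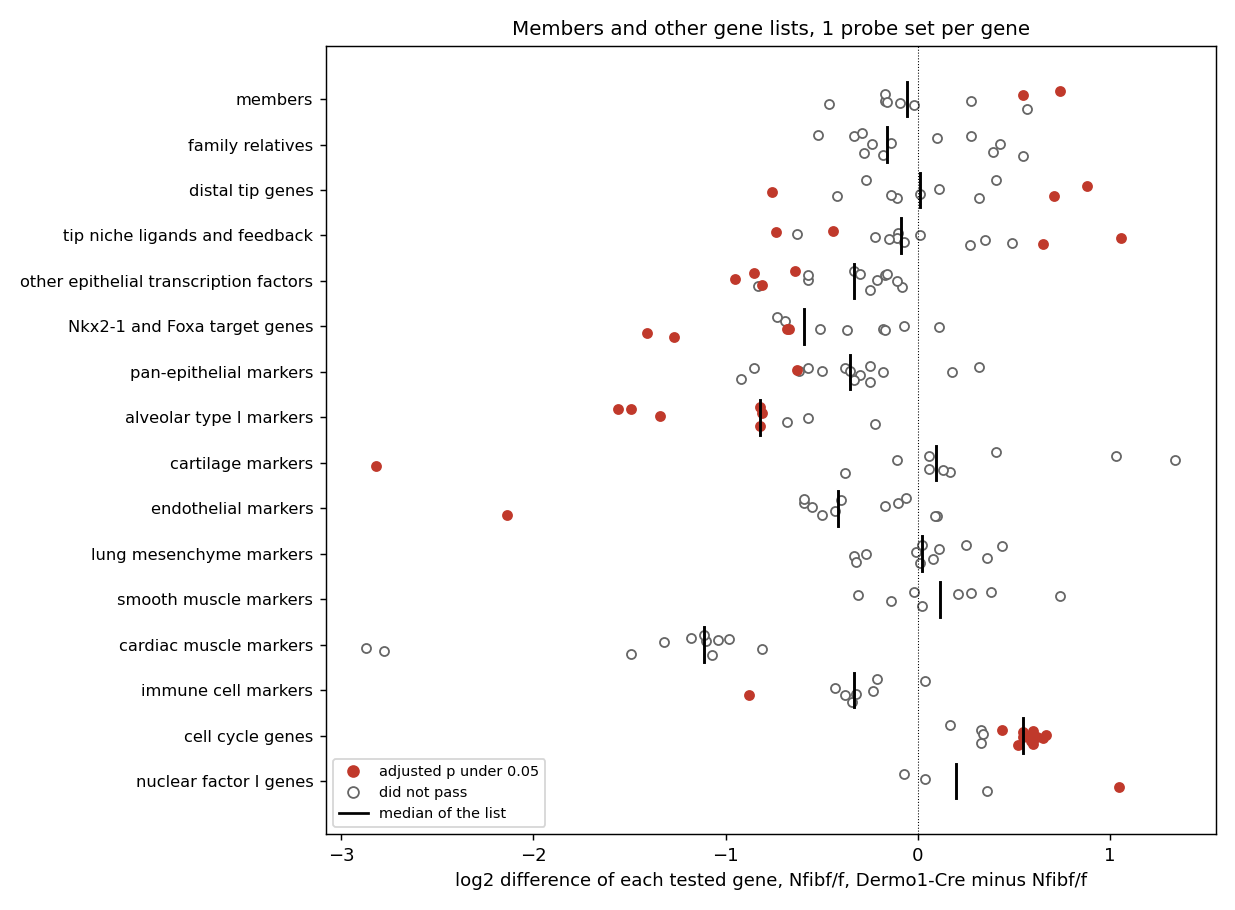
Log2 difference (x axis, Cre-labelled minus control-labelled, n = 3 each) of each tested gene by its brightest probe set, for the members and 15 other lists; filled red circles passed an adjusted p of 0.05 and black bars are list medians. The member median of -0.05 lies between the cell cycle list at 0.55 and the target genes of Nkx2-1 and the Foxa factors at -0.59, with Mycn and Foxp2 as the only red circles among the 10 members.

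Other named genes were ranked by how closely they followed the called members over the 6 arrays. Likeness was measured as the root mean square difference of profiles, each minus its own mean, over 12256 other named genes. Nearest to Mycn 1417155_at were the adaptor gene Sh2b2 (0.044 log2 units), Zfp148 (0.051), a zinc finger gene, and Fmod (0.058), which encodes the matrix protein fibromodulin. Nearest to Foxp2 1438232_at were Rsrc1 (0.031), Slf1 (0.033) and the thymidylate kinase gene Dtymk (0.034), and nearest to Foxp2 1438231_at were Mamdc2 (0.060), Hdgfl3 (0.060) and Sgo2a (0.062), a gene of sister chromatid cohesion. With 6 arrays in 2 groups, such likeness mostly restates a shared group difference.

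**Figure D4:**
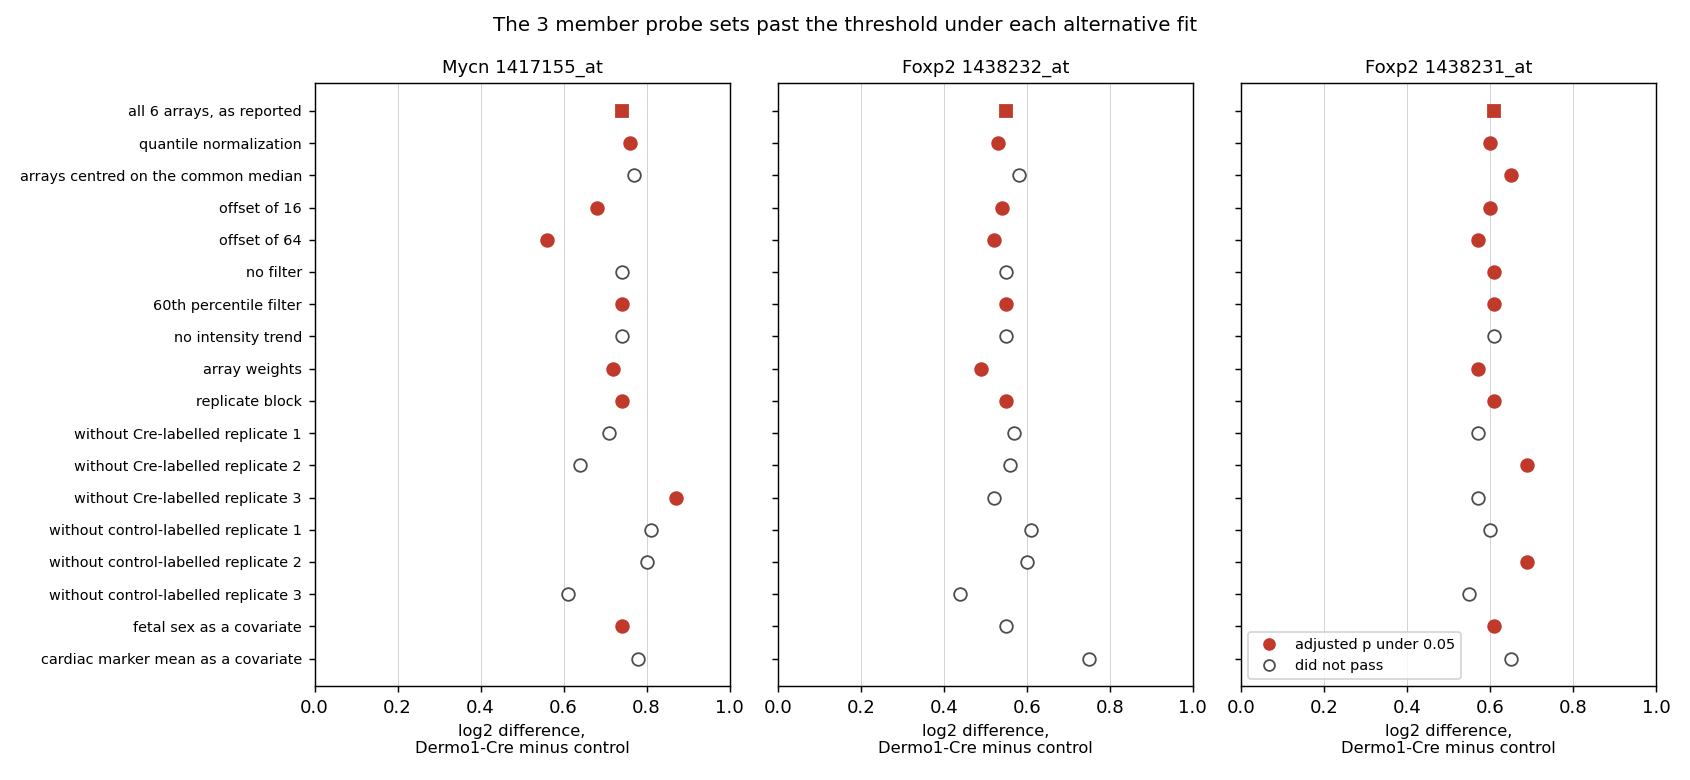
Log2 difference (x axis, Cre-labelled minus control-labelled) of the 3 called member probe sets in the reported fit (square) and in 17 alternative fits (circles); red symbols passed an adjusted p of 0.05. Differences stay between 0.44 and 0.87 in every fit shown, while the call holds in 8 alternatives for Mycn, 6 for Foxp2 1438232_at and 11 for Foxp2 1438231_at.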

How the data were processed

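Whole-lung RNA of 6 animals was measured on Affymetrix mouse arrays. The deposited values are log2 signals of the authors; per the submitters' processing notes MAS5 and affy were used, and further steps are not given in the sources used here. Raised to the power of 2, every array had a mean of 150.04 to 150.05 after trimming 2% at each end. Values were used as deposited. Of 45101 probe sets, 64 were Affymetrix controls and were dropped. A single gene symbol was annotated for 34945 of the others, several for 932 and none for 9160; symbols were updated through RefSeq (GRCm38.p6). The sources used here give no probe positions.

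Probe sets at or above the 40th percentile of the mean (27022) entered the limma fit (version 3.58.1, R 4.3.3, intensity trend, two-sided, no covariates, 4 residual and 5.32 prior degrees of freedom). The fit was tested on simulated data. For the lists, the brightest probe set stood for each gene; 194 of 198 entries were matched. Named were all members, list genes past the threshold and, to make up 2 per list, those with the smallest p, and the 3 nearest profiles per called member. The members and lists were chosen with earlier results of these data known. Acan, Matn1, Matn3, Comp, Id1, Myc, Etv5, Shh, Fgf10, Sox2, Sftpc, Esrp1 and Epcam were named after their values were seen. Some lists share genes, such as Bmp4 and Wnt7b. The labels call the lungs biological replicates. Alternatives varied scaling, offset, filter, trend, weights, replicate block, covariates and the arrays used. Promoters came from RefSeq windows, and those of 7 of 10 members were searched as member windows. Windows on chromosome 18, where Gata6 lies, were left out of the member windows. Figures used matplotlib 3.10.9.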

Additional observations from a re-analysis of the deposited data

How the results depend on the processing

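The called Mycn and Foxp2 probe sets kept their direction in all 17 alternative fits of single probe sets, while their calls depended on the setting. The causes were not tested unless stated. Member probe sets past the threshold, 3 as reported, numbered 1 with arrays centred on the common median, 1 with no filter, 0 with no intensity trend, 0 when the cardiac marker mean was a covariate and 7 when an adjusted p of 0.10 was allowed, and 0 to 1 without 1 array, where fewer arrays enter. As reported, 9 member probe sets had an unadjusted limma p under 0.05. Probe sets called across the array, 963 as reported, numbered 171 with no intensity trend, 587 with a term for fetal sex, 17 with the cardiac marker mean, 2120 when an adjusted p of 0.10 was allowed and 308 to 499 without 1 array. The covariates were chosen after seeing the data, and the cardiac marker mean largely follows the groups. With the replicate number as a block, 1309 probe sets and 4 member probe sets passed. Foxp2 1422014_at (limma adjusted p = 0.036) joined the 3. Same-numbered arrays of the 2 groups had correlations of deviations from the group means of -0.014, 0.195 and 0.138. The labels do not say that a number is shared between groups, and these correlations cannot settle whether same-numbered arrays are paired.

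No called member probe set changed sign in any of its 17 alternative fits. With the mean of its tested probe sets standing for the gene, Mycn did change sign, to -0.20 ± 0.25 SE (limma adjusted p = 0.67). Differences that had not passed changed sign as follows. With the cardiac marker mean Id2 1422537_a_at read -0.08, Mycn 1425922_a_at -0.07, Foxp1 1455242_at 0.03, Foxp1 1421140_a_at -0.01, Foxp4 1431437_at -0.07 and the cardiac gene Actc1 0.06. With array weights Foxp1 1421140_a_at read -0.00 and Foxa2 0.06, and with centred arrays Foxp1 1455242_at read 0.01. Without 1 array, Id2 1422537_a_at ranged from -0.04 to 0.12, Mycn 1425922_a_at from -0.02 to 0.05, Foxp1 1455242_at from -0.15 to 0.15, Foxp1 1435222_at from -0.06 to 0.10, Foxp1 1421140_a_at from -0.09 to 0.11, Foxp1 1421141_a_at from -0.26 to 0.11, Foxp1 1421142_s_at from -0.21 to 0.05, Foxp4 1431437_at from -0.21 to 0.21, Foxa2 from -0.25 to 0.16 and Gata6 1443081_at from -0.40 to 0.04. Over all member fits 442 kept direction and side of the threshold, 30 changed sign, 26 lost and 2 gained a call. Signals near the level required for testing, as for Nkx2-1, Foxp4 and the dim Mycn probe sets, limit what these arrays can show.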
